A study of Mus musculus with 55 samples.

Results

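The genes described here are the Dlx and Msx homeobox genes of mouse pancreatic islets, Dlx1 to Dlx6 together with Msx1 and Msx2. They were taken by name, 8 of the 47937 genes in a table of RNA-seq read counts, and were followed through 16 libraries of whole islets. Dlx and Msx proteins are homeodomain transcription factors of the NK-like class. Dlx genes act in the branchial arches, the limb bud and the GABAergic interneurons of the forebrain, and Msx genes respond to BMP signals in the teeth, the skull and the limb bud, where Msx proteins mostly repress transcription. None of them is a gene of the mature β cell. In adult tissues such developmental genes are usually held silent by Polycomb repressive complex 2 (PRC2), whose subunit Ezh2 places H3K27me3 on histone H3 and whose subunit Eed is needed for that activity.

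The study asked what PRC2 does in terminally differentiated β cells. It deleted a floxed Eed allele with the insulin promoter driven RIP-Cre in C57B6/J mice and compared islets of wild type, heterozygous and knockout (Eed -/-, called βEedKO) males at 8 and 25 weeks of age. At 8 weeks there were 3 wild type, 3 heterozygous and 3 βEedKO libraries, and at 25 weeks 3, 2 and 2. Whether the wild type and heterozygous animals carried the Cre is not stated in the sources used here. Each 25-week βEedKO library pooled several animals, more than the other libraries did. In the study βEedKO mice were glucose tolerant at 8 weeks, and all of them had overt diabetes by 25 weeks. Effects of the deletion and of high blood glucose therefore cannot be told apart in the 25-week βEedKO libraries. Recombination was directed to β cells, whereas the libraries hold RNA of whole islets with their other endocrine, duct, vessel and connective tissue cells, so more cells expressing a gene and more RNA per cell cannot be told apart.

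Levels are given as reads and as CPM, the usual depth-scaled count, for which reads are divided by a library's total and its TMM scaling factor. Library totals ran from 4645393 reads in the 25-week wild type replicate 2 to 22925359, and 3 reads corresponded to 0.121 to 0.654 CPM. Eed itself lay between 13.4 and 15.6 CPM in all βEedKO libraries and between 19.3 and 33.1 CPM in all wild type libraries. These 2 groups did not overlap at either age, although the change in Eed had an adjusted p of 0.0881 at 8 weeks and 0.142 at 25 weeks. Heterozygous libraries lay between them, with 17.1 to 20.5 CPM at 8 weeks and 16.3 to 16.9 CPM at 25 weeks. Between βEedKO and heterozygous islets edgeR's test gave Eed an adjusted p of 0.252 at 8 weeks and 0.722 at 25 weeks. Mature β cell markers were abundant in the wild type libraries. At 25 weeks the summed CPM of the 8 β cell markers was 122260 to 218347 in wild type and 13861 to 17175 in βEedKO islets.

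In wild type islets all 8 genes lay in bivalent Polycomb chromatin. The study divided the genome into chromatin states in bins of 200 bp, of which states L and M combine the active mark H3K4me3 with H3K27me3, and states N and O are related Polycomb states. The start site was in state M for 7 genes and in state L for Msx1, whereas state M held the start site of 1624 of 28877 genes (5.62%) and state L that of 3021 (10.5%). The gene bodies lay wholly in states L, M, N or O. State M covered 100% of Dlx2, Dlx5 and Msx2, 86.2% to 96.2% of Dlx1, Dlx3, Dlx4 and Dlx6, and 66.3% of Msx1.

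The 6 Dlx genes form convergent pairs on GRCm38. Dlx1 (ENSMUSG00000041911.3, chr2:71528113-71533981, plus strand) faces Dlx2 (ENSMUSG00000023391.8, chr2:71543408-71546754, minus strand) across 9426 bp. Dlx3 (ENSMUSG00000001510.8, chr11:95120119-95125296, plus) and Dlx4 (ENSMUSG00000020871.8, chr11:95140447-95146263, minus) are 15150 bp apart, and Dlx6 (ENSMUSG00000029754.13, chr6:6863334-6868568, plus) and Dlx5 (ENSMUSG00000029755.10, chr6:6877805-6882085, minus) are 9236 bp apart. Msx1 (ENSMUSG00000048450.10, chr5:37820485-37824583, minus) and Msx2 (ENSMUSG00000021469.9, chr13:53466884-53473074, minus) stand alone.

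The Polycomb domains around these genes were long. Dlx5 and Dlx6 shared 1 unbroken run of states L, M, N and O of 92200 bp, longer than that of 99.5% of the 9470 genes whose start site lay in any of these states. Dlx1 and Dlx2 shared a run of 43400 bp (96.2% of genes had a shorter run). Msx2 stood in 32600 bp and Msx1 in 28800 bp, against a median of 7400 bp over the 9470 genes and of 15600 bp over the 1624 in state M. The third pair differed: Dlx4 stood in 17600 bp and Dlx3 in 14600 bp, separate runs broken between the genes, and these 2 were the only members with other states within 10 kb of the start site.

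**Figure D1:**
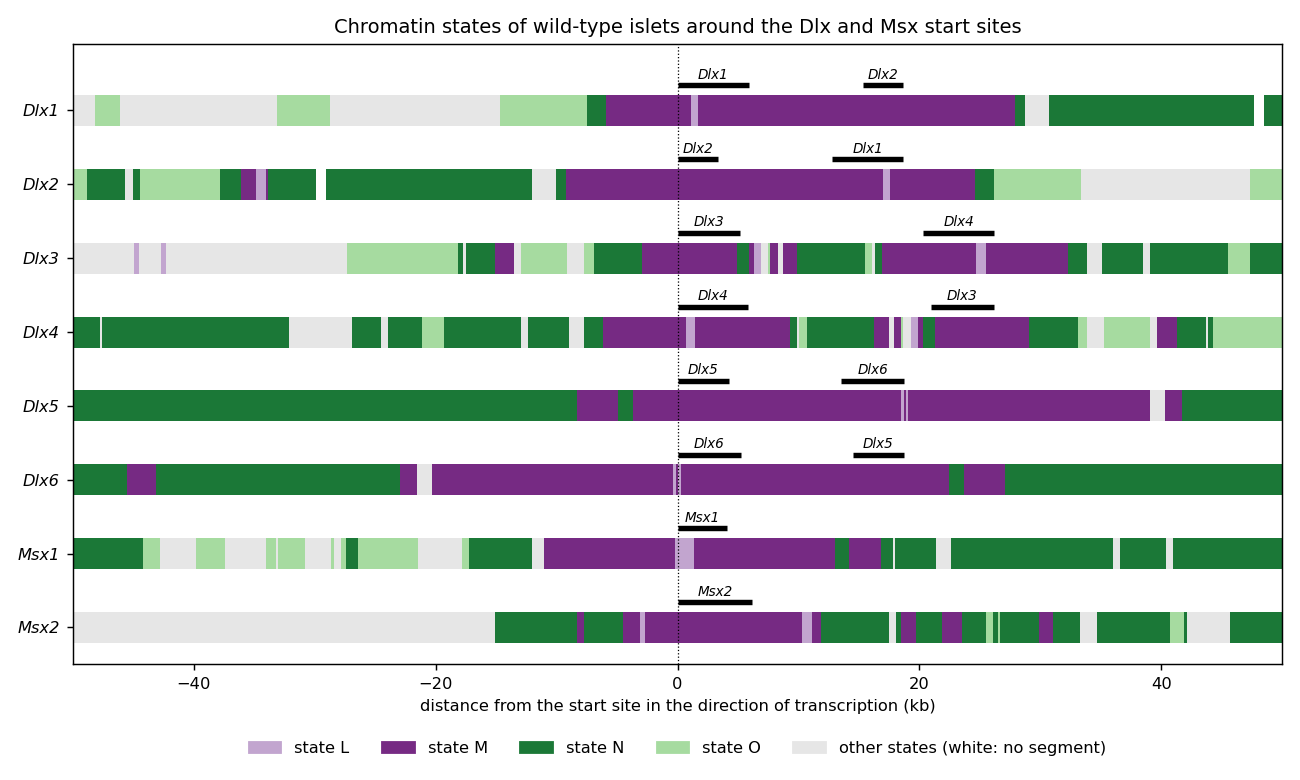
Chromatin state of wild type islets around each start site, with distance from the start site in kb on the x axis (50 kb each side, in the direction of transcription) and 1 row per gene. Colours are the states and white marks bins with no segment in the deposited list. The rows of Dlx5 and Dlx6 are filled with Polycomb states for the longest stretch (92200 bp), those of Dlx3 (14600 bp) and Dlx4 (17600 bp) for the shortest.

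The 250 bases before the start of Dlx2 and of Msx1 are shown as examples of a start in state M and in state L, from RefSeq (GRCm38.p6). They run 5′ to 3′ in the direction of the gene, chr2:71546755-71547004 on the minus strand and chr5:37824586-37824835 on the minus strand, with each CG dinucleotide in capitals.
Dlx2: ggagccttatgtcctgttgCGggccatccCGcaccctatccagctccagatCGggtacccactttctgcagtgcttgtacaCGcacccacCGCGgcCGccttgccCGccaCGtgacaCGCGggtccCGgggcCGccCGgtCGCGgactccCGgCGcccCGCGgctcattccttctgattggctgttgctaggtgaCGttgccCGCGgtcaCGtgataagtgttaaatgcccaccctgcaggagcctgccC
Msx1: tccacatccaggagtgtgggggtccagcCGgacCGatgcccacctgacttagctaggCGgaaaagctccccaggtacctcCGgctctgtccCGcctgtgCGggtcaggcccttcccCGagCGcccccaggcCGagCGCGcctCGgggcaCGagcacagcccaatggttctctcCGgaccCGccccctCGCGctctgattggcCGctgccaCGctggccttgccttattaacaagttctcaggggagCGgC
The printed stretch of Dlx2 holds 24 CG dinucleotides and that of Msx1 holds 20. RefSeq windows of 300 bases around the start were used for 4 members, and they held 27 (Dlx1), 29 (Dlx2), 29 (Msx1) and 22 (Msx2) CG dinucleotides, against a median of 7 over 32851 promoters. The RefSeq start of Dlx1 lies inside the GENCODE gene and in state L, and the 250 bases before the RefSeq starts of Dlx1 and Msx2 are wholly exonic in GENCODE, so the windows of these genes are not upstream sequence of the starts used elsewhere. CpG-dense, unmethylated starts are the kind on which PRC2 is known to settle. The core sequences TAATTA and TAATTG, searched on both strands, occur in 5.29% and 8.00% of all promoters, and of the 4 members only Msx2 held either, a TAATTA.

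Msx1 was the member with a measurable level before the deletion. This BMP target, which keeps limb, jaw and tooth progenitors growing, had 0.634, 1.10 and 1.11 CPM in the 8-week wild type libraries and 0.654, 0.526 and 1.24 CPM in the 25-week ones. The 8-week heterozygous libraries had 1.04, 0.709 and 0.619 CPM. These 3 groups overlapped throughout.

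In 8-week βEedKO islets Msx1 stood at 5.26, 5.01 and 9.43 CPM, from 100 to 111 reads a library. Every βEedKO library was above every wild type and heterozygous library of that age. Against the wild type mean of 0.95 ± 0.27 CPM (SD, n = 3) the βEedKO mean was 6.57 ± 2.48 (n = 3), and edgeR's quasi-likelihood test gave a log2 fold change of 2.77 ± 0.47 (SE) with a Benjamini-Hochberg adjusted p of 0.0346. This call was close to the threshold. It was lost with the replicate number as a block, where the log2 fold change was 2.58, the adjusted p was 0.338 and none of the genes tested was called. It was also lost without any 1 of 8 libraries. These were wild type replicates 1, 3 and 4 (adjusted p = 0.0996, 0.161 and 0.153) and βEedKO replicates 4 and 5 (0.0687 and 0.109) at 8 weeks, and wild type replicate 2 (0.0516) and βEedKO replicates 2 and 3 (0.0634 and 0.0700) at 25 weeks, which entered through the shared estimate of spread.

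At 25 weeks Msx1 reached 11.7 CPM (154 reads) and 22.0 CPM (547 reads) in the 2 βEedKO libraries. Both lay far above the wild type range of 0.526 to 1.24 CPM. The pooled reads were 21.9-fold higher per scaled library, with a 95% counting interval of 14.8 to 33.7. The log2 fold change was 4.29 ± 0.53 (adjusted p = 0.00153), and it stayed between 3.77 and 4.99 and called under all 18 alternatives tried. Counting intervals cover counting error only, since reads without molecular identifiers are not independent molecules. The p-values weigh a difference against a spread between libraries that is estimated over all libraries of a fit.

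Msx2, the relative of Msx1 that acts in skull sutures, tooth and hair follicle, was listed with 0 reads in 5 of the 6 wild type libraries and with 2 in the other. In 8-week βEedKO islets it had 28 reads in replicate 1 but 2 and 1 in the others, so that 1 library held nearly all of its signal and the groups overlapped (adjusted p = 0.624). At 25 weeks it had 0.760 and 0.685 CPM, from 10 and 17 reads. Both βEedKO libraries were above the 3 wild type libraries, all at 0, and the level was at least 7.31-fold higher against a floor of 3 reads over the group. The adjusted p was 0.142.

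Dlx5 and Dlx6, the pair of the distal limb, the bone-forming cells and the lower jaw, were at or near 0 in wild type islets at both ages. Dlx6 had 6.54 CPM (86 reads) and 5.52 CPM (137 reads) in the 25-week βEedKO libraries, against 0, 0 and 2 reads in wild type libraries of that age. Dlx5 had 1.52 and 1.33 CPM, from 20 and 33 reads, against 1, 0 and 1. For both genes the βEedKO libraries were close to each other and well above the wild type libraries. Dlx6 was 90.5-fold higher over the pooled reads, with a counting interval of 24.8 to 752, and passed the test (log2 fold change 6.36 ± 1.30, adjusted p = 0.0172). Dlx5 was 21.5-fold higher with an interval of 5.67 to 182, and did not pass (4.11 ± 1.23, adjusted p = 0.0789). At 8 weeks neither was called. Dlx6 had 6, 1 and 1 reads in βEedKO and 1, 6 and 0 in wild type libraries, a ratio of 1.13 with an interval of 0.357 to 3.65.

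Dlx3 and Dlx4 had almost no reads in wild type islets, as did Msx2. Dlx3, which acts in the placenta, hair and teeth, had 0 reads in all 6 wild type and all 5 heterozygous libraries, and Dlx4 had 1 read in 1 of those 11. Each had 2 reads in 8-week βEedKO replicate 4 and 0 in the other 8-week βEedKO libraries. At 25 weeks Dlx3 had 2.43 and 3.87 CPM (32 and 96 reads), and Dlx4 had 2.43 and 2.54 CPM (32 and 63 reads). Both genes were thus seen almost solely in the 25-week βEedKO libraries. Dlx3 was at least 34.6-fold higher than in wild type islets (adjusted p = 0.0308). Dlx4 was 77.1-fold higher with a counting interval of 13.5 to 3078 (log2 fold change 5.93 ± 1.29, adjusted p = 0.0324).

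Dlx1 and Dlx2, the pair that specifies GABAergic interneurons, stood at 1.67 CPM or less in every library. Dlx1 had 1.14 and 0.604 CPM in the 25-week βEedKO libraries, from 15 reads in each, against 2, 0 and 1 reads in wild type. Dlx2 had 1.67 and 0.766 CPM, from 22 and 19 reads, against 2, 0 and 0. The βEedKO libraries were the higher ones for both genes, although a wild type library with 2 reads stood at 0.436 CPM, since it was the shallowest. The pooled ratios were 8.12 with an interval of 2.52 to 41.6 for Dlx1 and 16.6 with an interval of 4.32 to 142 for Dlx2. Neither passed the test (log2 fold change 2.73 ± 1.30, adjusted p = 0.276, and 3.68 ± 1.79, adjusted p = 0.285). At 8 weeks Dlx1 had 5, 3 and 11 reads in βEedKO and 4, 2 and 1 in wild type libraries. The groups overlapped in CPM, and the adjusted p was 0.825.

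**Figure D2:**
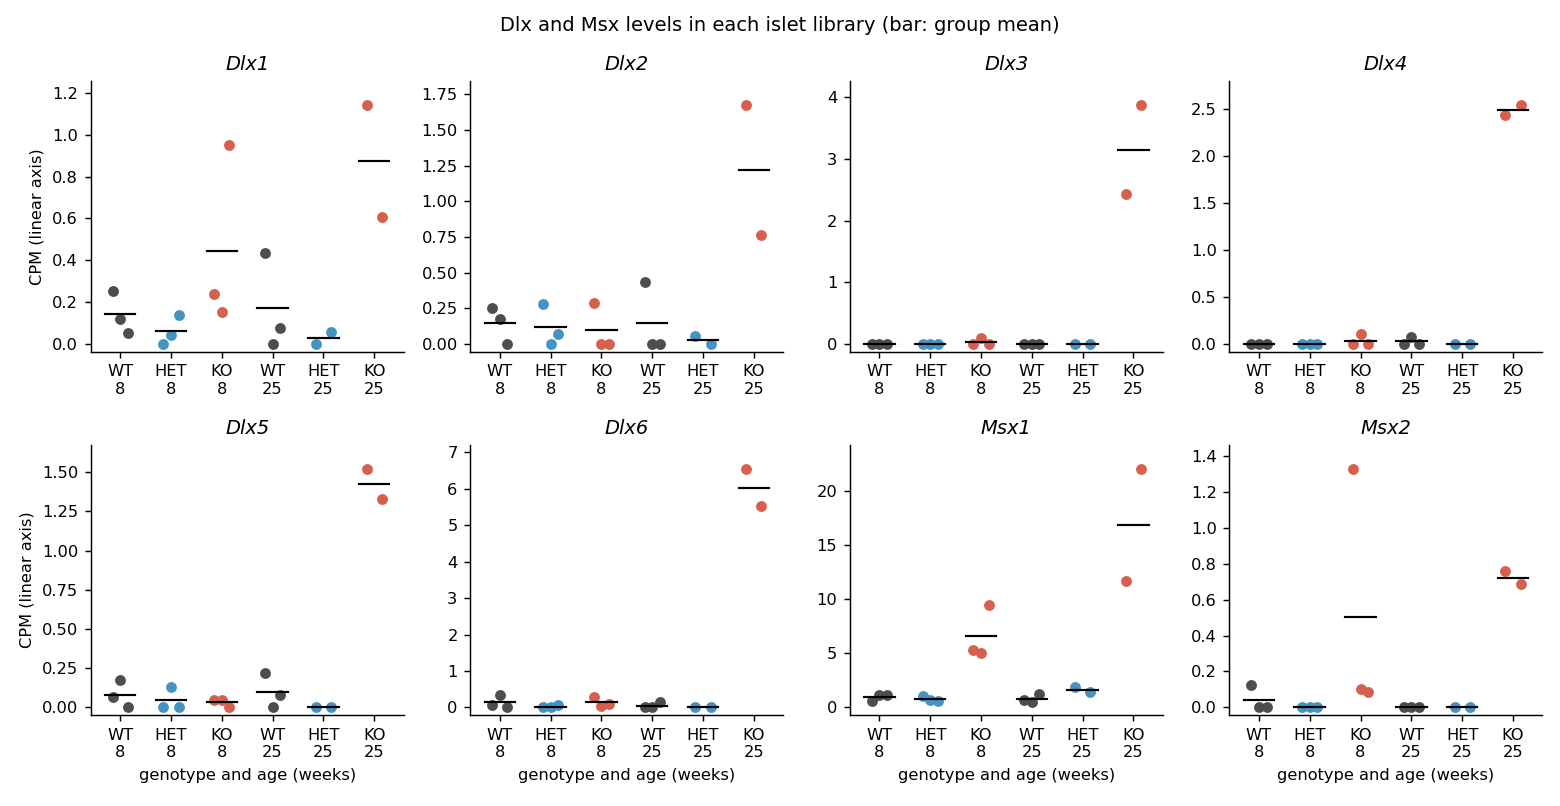
CPM of each gene in each of the 16 libraries, with 1 panel per gene, the 6 groups on the x axis and CPM on the y axis. Points are libraries and lines are group means. In every panel the 2 βEedKO libraries of 25 weeks are above all wild type libraries of that age, and only Msx1 is also clearly higher in the 8-week βEedKO libraries (5.01 to 9.43 CPM).

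Counted together, 1 of the 8 genes (Msx1) rose at 8 weeks and 4 (Dlx3, Dlx4, Dlx6 and Msx1) rose at 25 weeks, and none fell at either age. Over all 18685 genes tested the share called higher was 0.428% at 8 weeks and 4.58% at 25 weeks, and among genes starting in state M it was 2.55% and 27.1%. The share called lower was 0.00535% and 2.02% of all genes. All βEedKO libraries lay above all wild type libraries for 1 member at 8 weeks, against 6.53% of all genes and 18.7% of those in state M, and for 8 members at 25 weeks, against 24.7% of all genes and 68.7% of those in state M. The median fitted log2 fold change of the members was 2.05 at 8 weeks and 5.11 at 25 weeks, against 0.00 and 0.03 over all genes and 0.64 and 2.08 over the 902 in state M. With members that had 0 wild type reads at their bound the median was 4.20 over 8 members at 25 weeks. At 8 weeks it was 0.83 over 6 members, since Dlx3 and Dlx4 had too few reads for a bound. The medians of the other genes were not bounded in this way. Without the 25-week βEedKO libraries only 1 of the 8 genes would have passed the filter on low counts, so these counts and medians describe genes that entered through the libraries in which they were high.

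At 25 weeks the calls of Dlx3, Dlx4 and Dlx6 rested on few libraries. With the replicate number as a block Dlx6 (adjusted p = 0.0368) and Msx1 (0.0186) were called and Dlx3 (0.0944) and Dlx4 (0.0971) were not. Without wild type replicate 3 or 4, or without βEedKO replicate 2 or 3, Msx1 alone was called, and the adjusted p ran from 0.0514 to 0.0812 for Dlx6, from 0.0871 to 0.172 for Dlx3 and from 0.115 to 0.164 for Dlx4. Dlx4 was also lost without wild type replicate 2 (adjusted p = 0.0659).

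**Figure D3:**
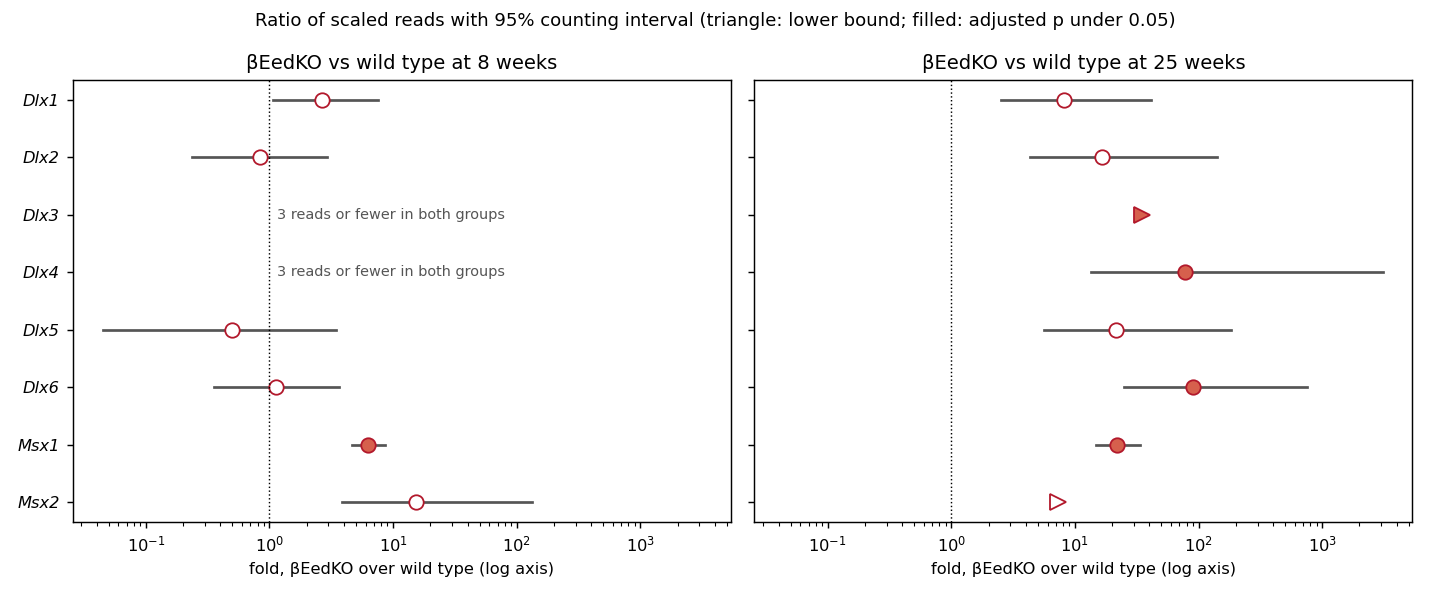
Ratio of βEedKO to wild type pooled reads for each gene at 8 and 25 weeks, on a log axis, with lines for the 95% counting interval, triangles for lower bounds where the wild type had 0 reads, and filled symbols for an adjusted p under 0.05. Dlx3 and Dlx4 had 3 reads or fewer in both groups at 8 weeks and no ratio. At 25 weeks every value lies above 1, from a bound of 7.31 for Msx2 to a ratio of 90.5 for Dlx6. At 8 weeks the intervals of Dlx2, Dlx5 and Dlx6 include 1. Those of Dlx1 and Msx2 do not, but the intervals cover counting error only, and neither gene was called.

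The order of the levels in 25-week βEedKO islets was taken per kb of exon. Msx1 led with 5.45 ± 2.36 CPM per kb (SD, n = 2), followed by Dlx6 with 2.54 ± 0.303, Dlx3 with 1.21 ± 0.389 and Dlx4 with 0.760 ± 0.0230. Dlx5 (0.630 ± 0.0595), Dlx2 (0.427 ± 0.225), Msx2 (0.220 ± 0.0162) and Dlx1 (0.162 ± 0.0702) came last. From Dlx5 downward each gene differed from the next by less than the larger of the 2 SDs. These SDs depend on the TMM scaling factors of the 2 libraries. With library-size scaling Dlx4 had 0.864, Dlx5 0.695 and Msx2 0.245 CPM per kb, and the order was the same. In wild type islets at 8 weeks Msx1 had 0.307 ± 0.0884 CPM per kb (n = 3) and the next gene, Dlx6, 0.0578 ± 0.0782. Taken over the family, the 8 genes held 22 to 33 reads per wild type library at 8 weeks, 111 to 157 per βEedKO library at 8 weeks, and 371 and 927 in the βEedKO libraries at 25 weeks. Msx1 was 41.5% and 59.0% of those last sums, and only these 2 libraries had reads of all 8 genes.

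Between 8 and 25 weeks Dlx3, Dlx4, Dlx5 and Dlx6 had the largest ratios in βEedKO islets. For 6 members (the exceptions were Dlx1 and Msx2) both 25-week βEedKO libraries were above all 3 of 8 weeks, against 17.3% of all genes. The pooled ratio was 38.6 for Dlx6 with an interval of 19.3 to 90.6, and 3.04 for Msx1 with an interval of 2.66 to 3.48. It was 1.21 for Msx2, whose interval of 0.693 to 2.09 includes 1. None of the 8 passed edgeR's test, against 1.02% of all genes called higher, with an adjusted p of 0.0522 for Dlx6, 0.0604 for Dlx4, 0.0787 for Dlx3 and Dlx5 and 0.235 for Msx1. At an unadjusted p under 0.05 there were 5 members and 2627 of the 18685 genes, and DESeq2 called 3 members, with 563 genes higher in all. The difference between the knockout effects at the 2 ages was tested as an interaction, and no member passed (Dlx6 6.28 ± 1.77 on the log2 scale, adjusted p = 0.274, and Msx1 1.52 ± 0.68, adjusted p = 0.638), against 0.091% of all genes called higher. There were 3 members and 1450 genes in all at an unadjusted p under 0.05, and DESeq2 called 1 member, Dlx6, with 166 genes higher in all. In wild type islets no member was called between the ages by edgeR or DESeq2, and none had an unadjusted p under 0.05.

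With 1 Eed allele lost, no member was called. Between heterozygous and wild type islets edgeR called 0 of 8 members at either age, with 0 at an unadjusted p under 0.05 and 0 by DESeq2, and it called 0% of all 18828 genes. DESeq2 called 120 genes higher and 287 lower at 8 weeks and 2 and 1 at 25 weeks, and edgeR without 8-week wild type replicate 1 called 85 and 516 at 8 weeks, with no member among any of them. At 8 weeks no member had all heterozygous above all wild type libraries, against 10.2% of all genes, and at 25 weeks Msx1 did. Its 25-week heterozygous libraries had 1.85 and 1.46 CPM, both above the wild type maximum of 1.24 CPM, a pattern seen for 8.91% of all genes, with a log2 difference of 1.00 ± 0.48 that did not pass the test. Both lay well below the βEedKO libraries of 11.7 and 22.0 CPM.

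The heterozygous libraries also gave a second control for the same βEedKO libraries. At 8 weeks Msx1 was 7.82-fold higher in βEedKO than in heterozygous islets (interval 5.62 to 11.2) and was the member called (log2 fold change 3.04 ± 0.44, adjusted p = 0.00444), against 3.6% of all genes. At 25 weeks 5 members were higher, against 5.41% of all genes and 29.8% of genes in state M. They were Dlx3 (adjusted p = 0.0338), Dlx4 (0.0222), Dlx5 (0.0277), Dlx6 (0.00835) and Msx1 (3.35 ± 0.53, 0.0024). Msx1 was 11.1-fold higher, and Dlx5 at least 16.5-fold and Dlx6 at least 69.5-fold, since both had 0 reads in the 25-week heterozygous libraries. With the replicate number as a block no member was called against heterozygous islets, at 8 weeks (Msx1 adjusted p = 0.345) or at 25 weeks (Msx1 0.0715, Dlx6 0.0583). Without 25-week heterozygous replicate 1 only Msx1 was called, without replicate 2 none was, and without βEedKO replicate 2 or 3 Dlx6 and Msx1 were.

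Transcripts encoded beside the Dlx genes were read out too. Dlx6os1, the long noncoding RNA also known as Evf2 transcribed from the Dlx5 and Dlx6 locus, had 101 reads in the 25-week βEedKO libraries and 0 in wild type, at least 27.3-fold higher (adjusted p = 0.0268). Dlx4os was at least 27.6-fold higher, with 102 reads against 0 (adjusted p = 0.0225). Dlx1as had 43 against 35 reads, a ratio of 0.997 (adjusted p = 0.980). Its exons overlap those of Dlx1 over 335 bp, and those of Dlx4os overlap Dlx4 over 79 bp. Whether the counting used strand is not given in the sources used here, so reads of these stretches cannot be told apart. Msx3, the third Msx gene, had 9 reads against 1 and was too low to be tested.

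The genes around these loci were read out as well. Of 20 flanking genes 19 were tested, 2 were called higher at 25 weeks, against 4.58% of all genes, and none lower, and 0 were called at 8 weeks. Nsg1, a neuronal vesicle protein gene that lies beyond Stx18 from Msx1, with a start in state L 335 kb away, rose from 4.97 ± 3.66 to 30.3 ± 7.52 CPM (log2 fold change 2.62 ± 0.57, adjusted p = 0.0227). Drd1, the dopamine D1 receptor gene flanking Msx2 with its start in state M, also passed (5.96 ± 1.49, adjusted p = 0.0406), although its βEedKO libraries differed widely, with a mean of 6.56 ± 8.85 CPM. At the Dlx5 and Dlx6 locus Slc25a13, Sem1 and Sdhaf3, whose starts lie outside Polycomb states, had ratios of 1.16, 1.27 and 1.19. Tac1, the substance P precursor gene beyond Sdhaf3 in state M, had 440 against 32 reads (adjusted p = 0.243).

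**Figure D4:**
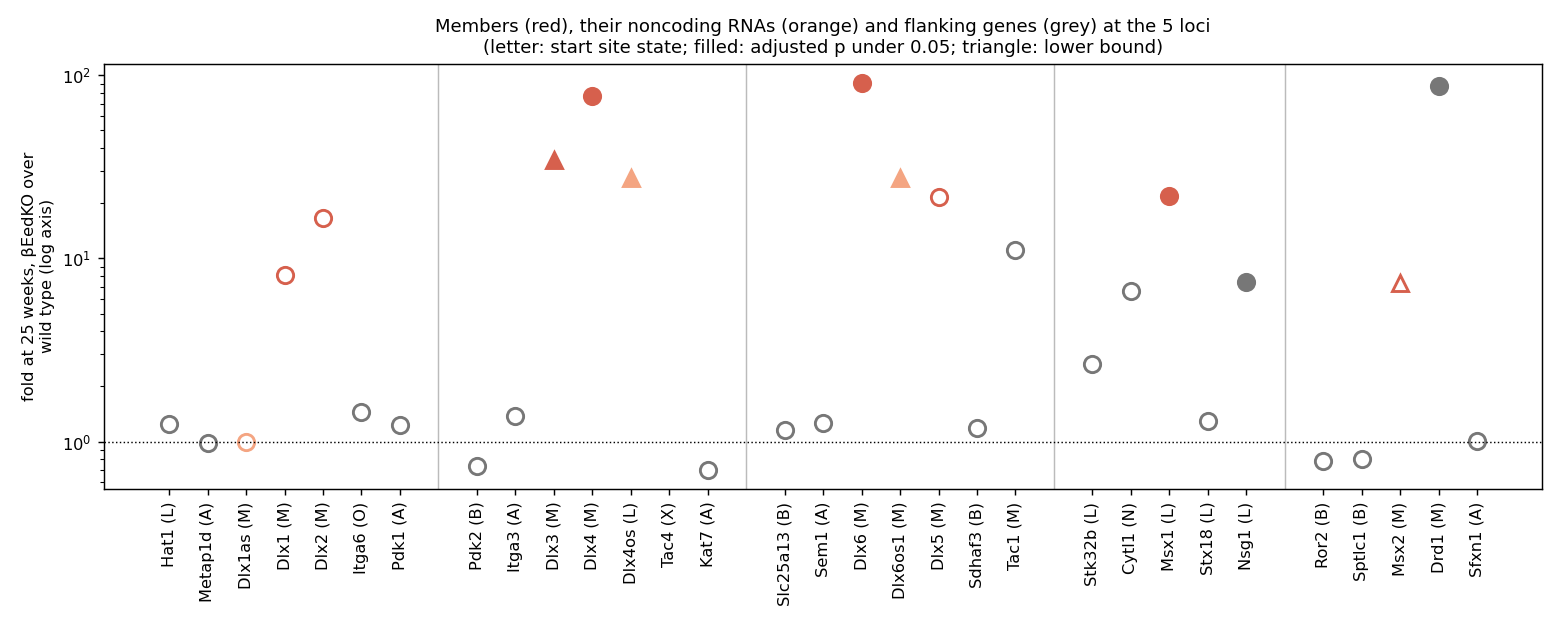
Ratio of βEedKO to wild type pooled reads at 25 weeks on a log axis for the genes at the 5 loci, in genome order along the x axis, with the state of each start site in brackets. Members are red, noncoding RNAs of the loci orange and flanking genes grey, filled symbols have an adjusted p under 0.05, triangles are lower bounds, and Tac4 has too few reads for a ratio. Most grey points lie near 1, whereas those of Stk32b, Cytl1, Nsg1, Tac1 and Drd1 lie between 2.64 and 87.1.

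The genes whose level across the 16 libraries was most like that of each member were found by Pearson's r on log2 CPM with a prior count of 2. Dlx3 was closest to Evx1os (r = 1.00), Hoxd10 (0.998) and Zic5 (0.996), and Dlx4 to Gpr50 (0.992), Dlx3 (0.991) and Otp (0.991). Dlx6 was closest to Hoxd13 (0.972), Tlx1 (0.959) and Foxl2os (0.958), and Msx1 to B4galnt4 (0.966) and Tceal6 (0.966). The remaining members led with Gas5 (Dlx1, 0.921), Nrg3 (Dlx2, 0.908), Ano4 (Dlx5, 0.960) and Anxa8 (Msx2, 0.949). Between the partners of a pair r was 0.991 for Dlx3 and Dlx4, 0.906 for Dlx5 and Dlx6 and 0.611 for Dlx1 and Dlx2, and it was 0.768 for Msx1 and Msx2. All of these points share the same libraries, those of 25-week βEedKO islets among them, and the values describe these libraries only. Dlx3 and Dlx4 had reads almost solely in the 25-week βEedKO libraries. A high r with each other, or with any gene seen only there, was therefore given in advance.

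Other NK-like homeobox genes rose in the same comparison. Of 24 listed genes 17 were tested, 1 rose at 8 weeks and 12 rose at 25 weeks, and none fell at either age. Over all genes 0.428% and 4.58% were called higher, and among genes starting in state M 2.55% and 27.1%. Listed genes with 0 wild type reads entered the test through the libraries in which they were high. Tlx1, a spleen determinant, went from 0.0508 ± 0.0440 to 13.2 ± 0.203 CPM at 25 weeks (adjusted p = 0.000615), and En2, a midbrain and cerebellum gene, from 0 reads to 12.7 ± 0.0548 CPM. Barhl1, a hindbrain and hair cell gene, was the one called at 8 weeks, with 0.541 ± 0.320 CPM in wild type and 8.43 ± 3.63 in βEedKO islets (adjusted p = 0.0116). At 25 weeks it had 8.04 ± 0.997 CPM in wild type and 3.71 ± 1.37 in βEedKO islets, and the interaction passed (adjusted p = 0.0348). The median log2 fold change of the 17 genes at 25 weeks was 7.49, or 6.40 with bounds.

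Genes that act with Dlx1 and Dlx2 in GABAergic neurons were listed as well, and 13 of 15 were tested. At 8 weeks 1 rose, against 0.428% of all genes, and at 25 weeks 8 rose and 1 fell, against 4.58% and 2.02%. Those that rose start in state M or L. In these states 2.55% and 1.83% of genes were called higher at 8 weeks, and 27.1% and 13.9% at 25 weeks. Any listed gene with 0 wild type reads entered the test through the libraries in which it was high. Gad2, an enzyme of GABA synthesis, rose at both ages, to 5.77 ± 4.50 CPM from 0.0934 ± 0.0567 at 8 weeks (adjusted p = 0.0307) and to 15.9 ± 3.73 from 0.174 ± 0.0835 at 25 weeks. Slc32a1, the vesicular GABA transporter, went from 0 reads to 22.0 ± 2.74 CPM at 25 weeks (adjusted p = 0.000848). Lhx6, a Dlx-dependent interneuron factor, rose from 0.375 ± 0.328 to 8.23 ± 3.09 CPM. Gad1, the other GABA-forming enzyme and one that mouse β cells express, fell from 195 ± 26.6 to 19.2 ± 6.05 CPM (log2 fold change -3.40, adjusted p = 0.00017).

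In the craniofacial and limb list 17 of 22 genes were tested. Of these 1 rose at 8 weeks and 12 at 25 weeks, against 0.428% and 4.58% of all genes, and none fell. Those that rose start in state M or L, where 27.1% and 13.9% of genes were called higher at 25 weeks. Any listed gene with 0 wild type reads entered the test through the libraries in which it was high. Pitx1, a jaw and hindlimb factor, went from 0.0251 ± 0.0434 to 26.1 ± 6.92 CPM at 25 weeks (adjusted p = 0.00017). Twist1, a mesenchymal factor, was called at 8 weeks, with 0.0581 ± 0.101 CPM in wild type and 4.86 ± 1.57 in βEedKO islets (adjusted p = 0.0307). Ednra, the endothelin receptor that acts upstream of Dlx5 and Dlx6 in the lower jaw, rose from 3.70 ± 1.44 to 19.3 ± 2.55 CPM at 25 weeks. Barx1 is counted in this list and in the NK-like one.

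The BMP pathway, which feeds Msx1 and Msx2 in embryos, was listed too. Of 22 genes 21 were tested, 0 were called at 8 weeks and 2 rose at 25 weeks, against 4.58% of all genes. Both start in state L, where 13.9% of genes were called higher at that age. The inhibitory helix-loop-helix gene Id3 rose from 10.2 ± 3.28 to 30.4 ± 10.6 CPM (log2 fold change 1.54, adjusted p = 0.0230), and the ligand gene Bmp2 from 0.277 ± 0.0953 to 6.56 ± 5.31 CPM (4.42, adjusted p = 0.0440). The median of the 21 genes was 0.74 at 25 weeks. Of 4 genes of proteins that bind Dlx or Msx proteins 2 rose at 25 weeks, against 4.58% of all genes. They were Ndn (log2 fold change 1.63, adjusted p = 0.00452) and Magel2 (5.33, adjusted p = 0.0466). None of the 4 PRC2 subunit genes, Eed included, passed at either age.

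Markers of other islet cells moved at 25 weeks as well. Over all genes 4.58% were called higher and 2.02% lower at that age. Of 8 mesenchyme markers 4 rose (Pdgfra 2.79, Col1a1 1.84, Dcn 1.89 and Col1a2 1.51 on the log2 scale), and their summed level was 275 to 382 CPM in βEedKO and at most 131 CPM in wild type islets. At 8 weeks none of the 8 was called, although all 8 had a log2 fold change above 0, with a median of 1.23. The summed level was then 85.2 to 228 CPM in βEedKO, 44.0 to 116 in wild type and 56.7 to 218 in heterozygous islets. The heterozygous maximum was that of replicate 2 alone, since replicates 1 and 3 had 56.7 and 62.4 CPM. Msx1 lay between 0.619 and 1.04 CPM in those heterozygous libraries. Of 6 duct markers only 4 had a log2 fold change above 0 at 25 weeks. Of these 2 were called (Spp1, and Krt19 by 3.62 on the log2 scale). The 6 summed to 559 to 709 CPM in βEedKO and 265 to 322 CPM in wild type islets. At that age 7 of 8 β cell markers fell, with a median log2 fold change of -3.45 over the 8. Endothelial markers stood at 362 to 438 CPM against 359 to 430 CPM, and Schwann cell and neuron markers at 44.0 to 76.1 CPM against 58.2 to 111 CPM, with no marker of either list called. Summed acinar markers differed most between the 2 βEedKO libraries, with 339622 CPM in replicate 2 and 10664 CPM in replicate 3, against 25981 to 188998 CPM in wild type, and each member had at least 10 reads in both. No listed marker was at 0 in any group. Of 6 macrophage and leukocyte markers Ptprc rose (1.90 on the log2 scale, adjusted p = 0.0420) and Cd79a fell (-1.67, adjusted p = 0.0215), with a summed 73.5 to 116 CPM in βEedKO and 53.6 to 66.0 CPM in wild type islets. Of 7 markers of other endocrine cells Irx2 rose (2.04, adjusted p = 0.0109), with a summed 15390 to 17029 CPM against 10080 to 12112 CPM. The part of mesenchyme, duct, acinar, leukocyte, other endocrine and β cell markers in the rise of Dlx and Msx genes was not tested.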

How the data were processed

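Islet RNA-seq libraries were aligned by the authors with TopHat 2.0.13 to GRCm38 and reads were counted per gene with featureCounts (subread 1.5.0-p1) on Gencode annotation. The deposited values are raw counts of 47937 genes in 16 libraries, and 47224 identifiers received a symbol from GENCODE. The deposited chromatin state list, 1 letter per genome segment, was made by the authors with EpicSeg from wild type islet ChIP-seq and DNA methylation on autosomes, without replicate spread. Gene positions are those of GRCm38.

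Counts were tested with edgeR 4.0.16 (TMM scaling, filterByExpr, quasi-likelihood test, Benjamini-Hochberg adjustment, calls at an adjusted p under 0.05). The 11 wild type and βEedKO libraries were fitted together (18685 genes) and all 16 for comparisons with heterozygous islets (18828 genes). DESeq2 1.42.0 was an alternative. Scripts were tested on simulated counts. Ratios of pooled reads carry 95% conditional binomial intervals, and a group with 0 reads was set to a floor of 3 reads over the group. Wild type and βEedKO libraries of 1 replicate number deviated together from their group means (r = 0.457 and 0.163 at 8 weeks and 0.176 and 0.255 at 25 weeks), so the numbers were used as a block in an alternative. Libraries of different number also did (r = 0.450 between 8-week βEedKO replicate 5 and replicate 3 of wild type), and the labels do not say what a number marks. No libraries agreed within sampling noise. All 8 members were to be described, whatever their result, and the 3 genes most like each were ranked by correlation, not all of which are reported here. The members and the gene lists were chosen with earlier results of these data known. The single-cell, human and ChIP-seq signal files were not used here.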

Additional observations from a re-analysis of the deposited data

How the results depend on the processing

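The number of members called moved as follows. For βEedKO against wild type islets at 8 weeks it was 1, 0 with the replicate block and 0 to 1 with 1 library left out. At 25 weeks it was 4, 2 with the block, 7 when heterozygous and wild type samples formed 1 control group (adding Dlx1, Dlx5 and Msx2) and 1 to 4 with 1 library left out. The interaction called 0, and 1 with DESeq2. For βEedKO at 25 against 8 weeks it was 0, 1 with library-size scaling, 3 with DESeq2, 3 without the filter, 2 in the fit of 16 libraries and 0 to 2 with 1 library left out, and no block was possible because the groups share no replicate number. Over all 18685 genes 190 were called higher in that comparison, 153 with library-size scaling and 563 with DESeq2. It was 312 of 30748 without the filter, 271 of 18828 in the fit of 16 libraries and 26 to 233 with 1 library left out. Against heterozygous islets at 8 weeks it was 1, and 0 with the block or with the block and library-size scaling. Of all 18828 genes 678 were called higher there, 1 with the block and 38 with the block and library-size scaling. At 25 weeks the number of members called against heterozygous islets was 5, 3 with DESeq2, 0 with the block, 1 with the block and library-size scaling and 0 to 5 with 1 library left out. Of all 18828 genes 1018 were called higher then, 1720 with DESeq2, 207 with the block and 444 with the block and library-size scaling. With 1 library left out 145 to 1348 genes were. The cause of these moves was not tested. No direction reversed. Counts of 0 for the wild type ages (15 alternatives) and for heterozygous against wild type (21 at each age) stayed at 0.

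Over all genes βEedKO against wild type called 80 higher and 1 lower at 8 weeks, and 358 and 35 with DESeq2, 431 and 72 with pooled controls, 0 and 0 with the block and 254 and 11 with the block and library-size scaling. Without the filter it called 133 and 4 and in the fit of 16 libraries 109 and 9. At 25 weeks it called 856 and 378, and 805 and 79 with library-size scaling, 1067 and 299 without the filter, 1336 and 757 with DESeq2, 1828 and 821 with pooled controls, 591 and 436 with the block and 1662 and 326 with the block and library-size scaling. With 1 library left out it called 18 to 127 higher at 8 weeks and, at 25 weeks, 279 and 113 without βEedKO replicate 3, 390 and 87 without βEedKO replicate 2, 345 and 142 without wild type replicate 3 and 376 and 170 without wild type replicate 4. Library-size scaling moved the median log2 fold change of all genes to 0.205 at 8 weeks and 0.266 at 25 weeks. Depth limits the Dlx genes, since most wild type libraries held 0 to 4 of their reads. Only 2 βEedKO libraries carry every 25-week value.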
